A study of Mus musculus with 14 samples.

Results

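The 6 libraries compared here came from intervertebral discs of db/db mice, which carry 2 mutant copies of the leptin receptor gene Lepr, and of their db/+ littermates, which carry 1. They were taken by their genotype labels and are 6 of the 14 samples of the study, whose other 8 came from streptozotocin-high-fat diet (STZ-HFD) mice and their controls (Con+Veh). Each group held 3 male mice of 3 months of age, neither group was treated, and 5 tail discs were pooled per mouse, so that each library is 1 animal. The db/+ controls share the mutant allele and are not wild type. Of the genes annotated as protein-coding, 12820 passed the minimum of 1 CPM (a count scaled to the size of its library) in at least 3 of the 6 libraries and are described here.

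The db mutation disables the long form of the leptin receptor, through which leptin from fat cells restrains appetite, and db/db mice become obese and diabetic. The disc is a joint between vertebrae, with a nucleus pulposus of notochordal cells inside an annulus fibrosus of collagen-rich fibrocartilage between cartilage endplates. Fat and tail muscle lie close by, so RNA of adipocytes and muscle fibers can enter a dissected disc. In bulk RNA, a change in the number of cells of a type and a change in RNA per cell cannot be told apart.

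The libraries held 43397872 to 52363402 counts, of which ribosomal RNA took 28.1% to 39.7% and protein-coding genes 55.6% to 68.3%. Discs were present in all 6, with Acan, the aggregating proteoglycan of cartilage, at 2212 to 5239 CPM in db/db and 5514 to 11710.0 CPM in db/+ libraries. Lepr had 6.07, 10.2 and 7.44 CPM in db/db and 12.3, 8.18 and 7.64 CPM in db/+. These levels overlapped, with a log2 fold change of -0.21 ± 0.29 (SE, limma adjusted p = 0.697). The gene-level count checks no label, since the mutant allele is still transcribed. The library of db/+ mouse 1 stood apart in notochordal genes. The notochord transcription factor T had 50.5, 30.6 and 50.2 CPM in db/db and 15.4, 308 and 271 CPM in db/+. Krt19, a keratin of nucleus pulposus cells, had 14.9, 9.60 and 27.9 CPM in db/db and 12.2, 183 and 108 CPM in db/+. On both genes, db/+ 1 lay with or below the db/db libraries and far from db/+ 2 and 3.

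Calls required a log2 fold change of at least 1 in size and a limma p below 0.05 after Benjamini-Hochberg adjustment. With the counts scaled by TMM alone, 323 genes were called higher in db/db discs, 2.52% of those tested, and 72 were called lower, 0.562%. With each library's trend over GC content removed as well, 177 were called higher, 1.38%, and 12 lower, 0.0936%. The 2 fits shared 144 genes higher and 11 lower. All 323 and all 72 genes called with the trend kept had CPM that did not overlap between the groups, a property that 29.4% of all tested genes had in one direction or the other. At an unadjusted p below 0.05 there were 3069 genes with the trend kept and 2155 with it removed. Leaving out db/db 1, 2 and 3 in turn left 110, 172 and 78 genes higher and 11, 12 and 11 lower, and leaving out db/+ 1, 2 and 3 left 198, 70 and 166 higher and 77, 17 and 62 lower. Of 56 genes named below that were called in both fits, 22 were called in all 6 fits, and 6 were called in none. All 56 kept their direction in each of these fits that tested them. That was largely fixed in advance, since their CPM did not overlap between the groups.

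Transcript GC content, the share of G and C in the merged exons of a gene, sorted the fold changes. Genes poor in G and C were higher in db/db libraries and genes rich in them were lower, with a Spearman correlation of -0.51. It is taken over 12813 genes, and genes are no independent replicates. Among 5 equal groups of genes by GC content (quintiles), the lowest held genes of 33.7% to 43.8%, where the median log2 fold change was 0.37. In the following quintiles it was 0.15, -0.05, -0.23 and, for genes of 55.1% to 75.9% GC, -0.41. The trend stood in every library. Per 10 percentage points of GC content, log2 CPM changed by -0.30, -0.28 and -0.10 in the db/db libraries and by 0.23, 0.29 and 0.17 in the db/+ libraries, each relative to the mean of the 6. The slopes did not overlap between the groups and differed by -0.46 (exact permutation test, two-sided p = 0.1, the smallest that 3 against 3 can give).

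**Figure D1:**
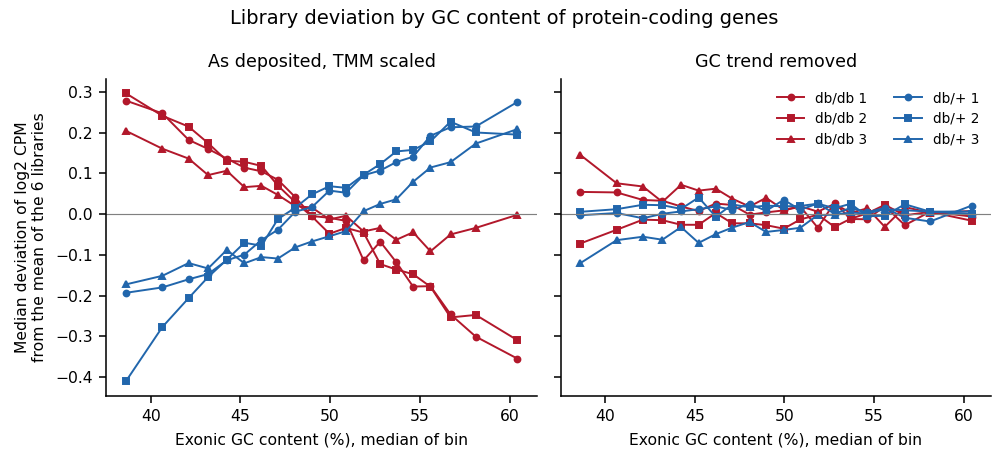
Median deviation of log2 CPM from the mean of the 6 libraries (y axis) in 20 bins of protein-coding genes by exonic GC content in % (x axis), for 3 db/db (red) and 3 db/+ (blue) libraries, before (left) and after (right) removal of the trend of each library. On the left the red lines fall and the blue lines rise, and db/db 3 has the flattest red line with a slope of -0.10. On the right the lines lie near 0, with the widest spread in the bin of lowest GC content.

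The trend was present at all expression levels and lengths. Within quintiles of genes by mean CPM the correlation was -0.44 to -0.58, and within quintiles by exonic length it was -0.45 to -0.58. Without the genes of the adipocyte and skeletal muscle lists it was -0.51. In the STZ-HFD cohort, the correlation of the STZ-HFD to Con+Veh fold change with GC content was -0.07 across 12792 genes. The slopes of those 8 libraries ran from -0.38 to 0.39, overlapped between the groups and differed by 0.00033 (exact permutation test, two-sided p = 1). Whether the slopes differed more in one cohort than in the other was not tested. The complementary DNA of all samples was amplified from 1 to 50 ng of RNA and again for 12 to 15 PCR cycles. The amount and the number of cycles of each library are not given in the sources used here. Since every db/db library sloped one way and every db/+ library the other, genotype and a GC effect of library preparation cannot be told apart for genes at either end of the GC range.

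Removal of the trend took most calls from the ends of the GC range. With the trend kept, the calls higher in db/db numbered 143, 77, 52, 34 and 17 from the lowest to the highest quintile of GC content and the calls lower numbered 1, 1, 3, 25 and 42. With the trend removed they numbered 19, 34, 43, 42 and 39 higher and 1, 2, 2, 4 and 3 lower. The 179 genes whose higher call was lost had a median GC content of 42.0%, against 49.1% for the 144 kept, 57.3% for the 33 gained and 49.5% for all genes tested. The 61 genes whose lower call was lost had a median of 56.7%. All 240 lost genes kept their direction, with adjusted p values (limma) of 0.042 to 0.257 after removal. Their direction could not have turned. Each had a log2 fold change of at least 1 in size, and medians of the GC bins before removal ran only from 0.52 to -0.50. Among the calls, the share that was higher in db/db went from 81.8% to 93.7%.

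**Figure D2:**
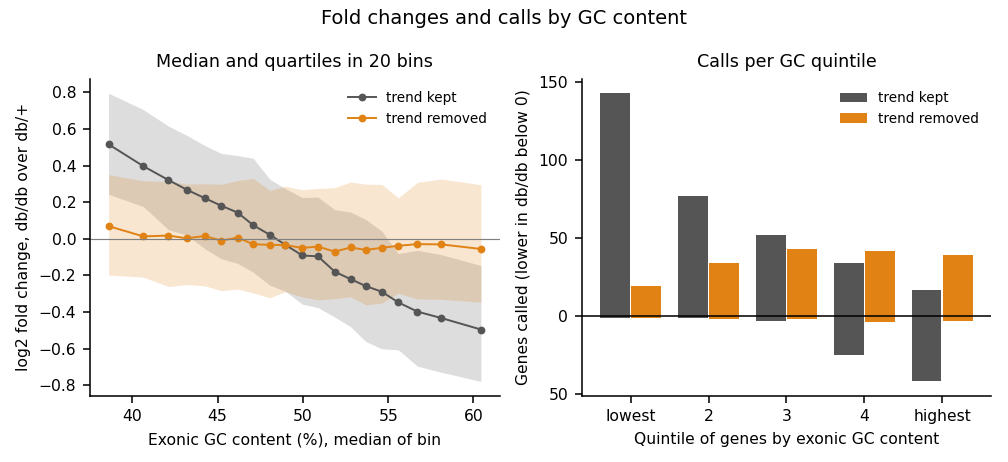
Left, log2 fold change of db/db over db/+ (y axis, median line and quartile band) in 20 bins of exonic GC content in % (x axis), with the trend kept (grey) and removed (orange). Right, the number of genes called per quintile of GC content, higher in db/db above 0 and lower below 0, where the grey bars fall from 143 to 17 and the orange bars lie between 19 and 43.

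Sequences from the middle of 4 coding regions are shown for genes whose whole exons lie low or high in this range. The shown stretches of Fabp4 and Wnt7b, at 46.7% and 52.2% GC, are themselves nearer to the median of all genes. All 4 are given with G and C in capitals, 90 bases each from the longest coding transcript of GENCODE M21 on GRCm38, all on the minus strand, and the genes were chosen after their values were seen. Cd36 and Fabp4, a fatty acid translocase and a fatty acid binding protein of fat cells, have exonic GC contents of 38.8% and 42.2%. Tmem158, a membrane protein, and Wnt7b, a Wnt ligand, have 63.8% and 61.3%. The Cd36 bases lie in 3 exons within chr5:17798294-17813050, those of Fabp4 in exon 2 at chr3:10205953-10206042, those of Tmem158 in its exon 1 at chr9:123260072-123260161 and those of Wnt7b in exon 3 at chr15:85543681-85543770. Of the 90 bases shown, 37, 42, 75 and 47 are G or C.
Cd36: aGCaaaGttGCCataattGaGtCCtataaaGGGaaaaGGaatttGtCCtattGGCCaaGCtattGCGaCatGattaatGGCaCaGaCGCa
Fabp4: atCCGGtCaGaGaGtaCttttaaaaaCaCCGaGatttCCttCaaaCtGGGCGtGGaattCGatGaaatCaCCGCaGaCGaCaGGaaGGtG
Tmem158: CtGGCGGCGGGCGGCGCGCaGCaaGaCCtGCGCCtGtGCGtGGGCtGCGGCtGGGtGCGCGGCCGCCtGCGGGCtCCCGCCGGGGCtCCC
Wnt7b: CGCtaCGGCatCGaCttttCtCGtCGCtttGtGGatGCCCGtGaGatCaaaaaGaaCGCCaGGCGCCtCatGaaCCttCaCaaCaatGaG

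Removal of the trend moved these 4 genes by unequal amounts. Cd36 went from a log2 fold change of 2.19 to 1.73 and was called in both fits. Fabp4 went from 1.39 to 1.06, where its adjusted p (limma) rose from 0.0293 to 0.0735 and the call was lost. Tmem158 had 11.9, 26.9 and 38.9 CPM in db/db and 3.6, 4.66 and 8.54 CPM in db/+, and its log2 fold change grew from 2.15 to 2.58 with removal. Wnt7b had 3.12, 1.49 and 5.72 CPM in db/db and 14.8, 15.7 and 7.27 CPM in db/+. Its log2 fold change of -2.08 shrank to -1.60 and its adjusted p (limma) rose from 0.0442 to 0.105.

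The genes highest in db/db discs among those called in both fits included an adipokine and a chemokine. Retn, which encodes the adipokine resistin, had 132, 144 and 80.9 CPM in db/db and 24.2, 11.9 and 17.8 CPM in db/+. The groups lay far apart, with a log2 fold change of 2.78 ± 0.31 (SE, limma adjusted p = 0.00365) and of 2.79 with the GC trend removed. Ccl6, a CC chemokine of myeloid cells, had 35.8, 25.4 and 20.4 CPM in db/db and 5.53, 2.17 and 4.42 CPM in db/+, again without overlap, and rose by a log2 fold change of 2.86 ± 0.37 (SE, limma adjusted p = 0.00727). Ms4a4d, a four-span membrane protein of the Ms4a family, had 13.2, 10.9 and 7.34 CPM in db/db and 0.365, 2.51 and 1.04 CPM in db/+. Its log2 fold change was 3.26 ± 0.57 (SE, limma adjusted p = 0.0175). Serpina3c, of the serine protease inhibitor family, had 10.9, 11.6 and 9.27 CPM in db/db and 2.74, 2.43 and 1.49 CPM in db/+ and a log2 fold change of 2.31. These 4 genes were called in all 6 fits that left out a library.

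Other large increases rested on low counts. Ncan, the proteoglycan neurocan, had 3.10, 1.35 and 1.93 CPM in db/db and 0.104, 0.175 and 0.176 CPM in db/+. Its log2 fold change of 3.63 ± 0.67 (SE, limma adjusted p = 0.0219) was the largest in size among the genes called in both fits, at levels where 3 counts are 0.0573 to 0.0691 CPM, and it was called in 2 of the 3 fits without 1 library in which it passed the CPM minimum. Adrb1, the beta-1 adrenergic receptor, had 1.08, 1.69 and 1.85 CPM in db/db and 0.469, 0.131 and 0.156 CPM in db/+ and Fcor, a corepressor of Foxo1 in fat, had 6.30, 4.78 and 3.29 CPM in db/db and 1.17, 0.590 and 0.704 CPM in db/+. Both were called in 1 of the 3 such fits that tested them. Ncan and Adrb1 passed the CPM minimum only through the db/db libraries, so their lack of overlap follows in part from the filter. Rpl10-ps3, which carries a pseudogene name and can share reads with the ribosomal protein gene it resembles, had a log2 fold change of 2.47 that is uncertain for that reason. Sucnr1, the succinate receptor, and Mc2r, the corticotropin receptor, had larger log2 fold changes of 4.92 and 4.44 but were called with the trend kept only, and each was at 0 in 1 db/+ library.

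Of 21 adipocyte markers tested, 8 rose in db/db discs and none fell, a share of 38.1%. With the GC trend removed 6 of them were still called higher. Leaving out 1 library left 2 to 6 calls with the trend kept and 2 to 7 with it removed. With the trend kept there were 6 without db/+ 1, 2 without db/+ 2 and 3 without any other single library, and with it removed there were 2 without db/+ 2 or db/+ 3. Their median log2 fold change was 1.01 with the trend kept and 1.06 with it removed, against -0.01 and -0.02 for all tested genes. Adipoq, which encodes adiponectin, had 25.8, 23.9 and 22.6 CPM in db/db and 9.49, 7.39 and 5.86 CPM in db/+. The db/db libraries were close together and all above the db/+ libraries, with a log2 fold change of 1.70 ± 0.24 (SE, limma adjusted p = 0.00974). Plin1, the coat protein of the fat cell's lipid droplet, had 64.2, 202 and 88.8 CPM in db/db and 34.3, 30.1 and 30.4 CPM in db/+, with the highest level in db/db 2. Its log2 fold change was 1.78, and 1.97 with the trend removed. Lep, which encodes leptin itself, had 4.01, 1.79 and 3.22 CPM in db/db and 1.02, 1.27 and 0.195 CPM in db/+. These levels did not overlap, but the adjusted p (limma) was 0.105.

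Not all fat cell genes followed. Cfd, which encodes adipsin and is among the most abundant transcripts of fat, had 179, 251 and 117 CPM in db/db and 368, 308 and 139 CPM in db/+. The levels overlapped, with a log2 fold change of -0.55 ± 0.38 (SE, limma adjusted p = 0.412). Car3, a carbonic anhydrase that muscle also expresses, had 1250.0, 1050.0 and 1148 CPM in db/db and 659, 4758 and 1604 CPM in db/+, where db/+ 2 stood above all other libraries. The summed level of the 21 genes was 2673, 2921 and 2158 CPM in the db/db libraries and 1662, 5531 and 2200.2 CPM in the db/+ libraries. Without Car3 it was 1423, 1871 and 1010.5 CPM against 1003, 773 and 596 CPM, and the groups no longer overlapped. Car3 was left out after its values were seen, so the separation of this sum depends on that choice. It is also on the list of nucleus pulposus and notochord markers. The mean log2 CPM of the list was 5.08, 5.41 and 4.75 in db/db and 4.40, 4.08 and 3.96 in db/+ libraries, a difference of 0.93 without overlap (exact permutation test, two-sided p = 0.1, the smallest possible). Adjusted over the 14 marker lists scored, this p is 0.467.

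**Figure D3:**
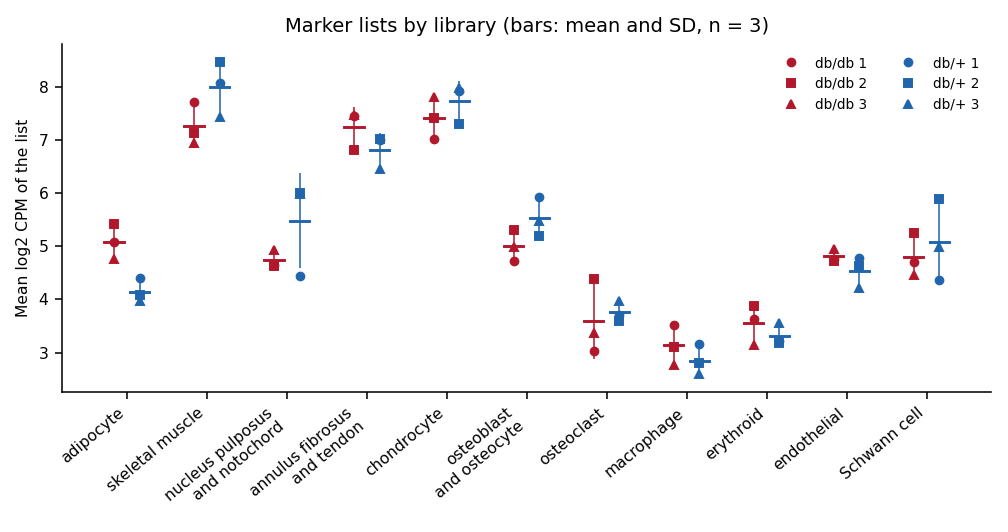
Mean log2 CPM (y axis) of 11 marker lists with more than 3 tested genes (x axis) in each db/db (red) and db/+ (blue) library, with the group mean and SD (n = 3). With the GC trend kept, as plotted, the adipocyte list is the only one of the 11 whose groups do not overlap, at 4.75 to 5.41 against 3.96 to 4.40.

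Genes that move and store lipid were called in 1 direction. Of 25 tested genes of fatty acid uptake and lipid storage, 7 were called higher with the trend kept and 6 with it removed, namely Cd36, Lpl, Plin1, Plin2, Lipe and Cidec, and none lower. These are 28% and 24% of the list, against 2.52% and 1.38% of all tested genes. Leaving out 1 library left 1 to 6 and 1 to 7 calls, with 1 in either fit without db/+ 2 and 1 without db/+ 3 with the trend removed. Without any single db/db library 2 or 3 were called. Of these, Lpl, Plin1, Lipe and Cidec are also adipocyte markers. Lpl, the lipase that frees fatty acids from circulating lipoproteins, had 481, 564 and 262 CPM in db/db and 160.3, 73.2 and 73.7 CPM in db/+ and a log2 fold change of 2.14 ± 0.37 (SE, limma adjusted p = 0.0175). Cd36 had 56.4, 55.7 and 44.3 CPM in db/db and 14.5, 12.0 and 8.44 CPM in db/+, with a gap between the groups, and a log2 fold change of 2.19 ± 0.24 (SE, limma adjusted p = 0.00365). Lipe, the hormone-sensitive lipase, had 37.5, 39.3 and 25.7 CPM in db/db and 19.6, 14.8 and 16.7 CPM in db/+ and was called in none of the 6 fits without 1 library. Scd1, the stearoyl desaturase, had 2128, 4937 and 1866 CPM in db/db and 1366, 814 and 1072 CPM in db/+, and its adjusted p (limma) was 0.0712. Of 23 genes of lipogenesis and cholesterol synthesis only Elovl5 was called with the trend kept, 4.35% of the list against 2.52% of all tested genes, and none with it removed. None of 23 genes of fatty acid oxidation was called in either fit.

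Further genes called higher in both fits encode receptors and enzymes of fat tissue, and were picked out here after their values were seen. They included Adra1b and Ptger3, receptors for noradrenaline and prostaglandin E2, with log2 fold changes of 1.79 and 2.23. Aoc3, a vascular amine oxidase abundant in fat, had 56.9, 82.3 and 90.4 CPM in db/db and 21.8, 37.0 and 28.8 CPM in db/+ and Trarg1, a regulator of glucose transporter trafficking, had 44.6, 58.0 and 27.8 CPM in db/db and 22.4, 13.7 and 14.1 CPM in db/+. Both were above all db/+ libraries in every db/db library. Tusc5, an older symbol of Trarg1, is on the adipocyte list but matched no gene by symbol, so Trarg1 is not among the 21 markers tested.

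When the adipocyte score of each library entered the fit as a covariate, no gene was called by limma in either direction, with the trend kept or removed. At an unadjusted p below 0.05 there were then 1641 and 1654 genes. The score and the genotype were close to collinear over the 6 libraries, with a correlation of 0.90. Of the 144 genes called higher in both fits, 142 kept their direction beside the score with the trend removed, and 105 had an unadjusted p below 0.05. Their median log2 fold change was 1.49 before and 1.45 after. These genes were selected in the same 6 libraries, so this is no independent check. The median of the adipocyte list itself was then -0.09, near 0 by construction, since the score is the mean of that list. The median of fatty acid uptake and lipid storage, which shares members with it, was 0.05. How far more adipocyte RNA accounts for the other changes was not tested.

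Nuclear genes of oxidative phosphorylation, which build the respiratory chain and the ATP synthase of the mitochondrial inner membrane, were called in 1 direction. Of 80 tested subunits, 11 were called higher with the trend kept, 10 with it removed and 8 in both fits, and none was called lower. The lists by complex had 8.57% to 25% called higher with the trend kept and 8.57% to 20% with it removed. Over all tested genes these shares were 2.52% and 1.38%. The 8 were Ndufb5, Ndufb8 and Ndufc1 of complex I, Uqcrh of complex III, Cox6c and Cox7a2l of the complex IV list, and Atp5e and Atp5l of the ATP synthase. Ndufb8 had 147, 115 and 119.8 CPM in db/db and 56.8, 54.8 and 43.2 CPM in db/+. The groups were separated, with a log2 fold change of 1.29 ± 0.21 (SE, limma adjusted p = 0.0144). Cox7a2l, which links respiratory complexes into supercomplexes, had 195, 157 and 184 CPM in db/db and 71.8, 64.0 and 64.6 CPM in db/+ and a log2 fold change of 1.41 ± 0.20 (SE, limma adjusted p = 0.00992). Atp5l had 150.0, 102 and 97.5 CPM in db/db and 38.9, 31.1 and 39.7 CPM in db/+ and a log2 fold change of 1.66 with the trend kept and 1.24 with it removed, at an exonic GC content of 40.3%.

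Most subunits did not pass the test. The medians were 0.17 for 35 complex I genes, 0.37 for 14 genes of complexes II and III and cytochrome c, 0.43 for 15 complex IV genes and 0.42 for 16 ATP synthase genes, and 0.31, 0.24, 0.43 and 0.64 with the trend removed. Among abundant members, Ndufa10 of complex I had a log2 fold change of -0.22 ± 0.24 (SE, limma adjusted p = 0.621) and Atp5b, the catalytic beta subunit, one of -0.08 ± 0.36 (SE, limma adjusted p = 0.913). With the skeletal muscle score as covariate and the trend removed, the medians were 0.52, 0.62, 0.76 and 0.78. With the adipocyte score instead they were 0.10, 0.69, 0.45 and 0.37. With the trend kept, leaving out 1 library left 1 to 3 calls in complex I and 0 to 3 in complexes II and III and cytochrome c (limma). Complex IV kept 1 or 2 and the ATP synthase 1 to 4. With the trend removed, the ranges were 0 to 3, 0 to 2, 1 or 2 and 0 to 2. The ATP synthase and the list of complexes II and III then had no call without db/db 1, db/db 3, db/+ 2 or db/+ 3. None of 23 fatty acid oxidation, 22 TCA cycle or 25 glycolysis genes was called with the trend removed. Gapdh, of glycolysis, had 1218, 737 and 1193 CPM in db/db and 1942, 5938 and 1422 CPM in db/+ and did not pass the test.

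Genes of the mitochondrial genome moved with the GC trend. Their median exonic GC content was 37.6%. The 11 tested were all above 0, with a median log2 fold change of 0.76 that became 0.31 with the trend removed. One of them, mt-Co2, a subunit of complex IV, was called with the trend kept and none with it removed. With the trend kept this is 9.09% of the list, against 2.52% of all tested genes called higher. mt-Co2 had 913, 649 and 649 CPM in db/db and 438, 199 and 230.3 CPM in db/+, without overlap, and log2 fold changes of 1.41 and 0.96. The share of protein-coding counts that came from these genes was 3.79%, 2.92% and 2.7% in db/db and 2.18%, 1.35% and 1.35% in db/+ libraries, which did not overlap.

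Of 78 tested ribosomal proteins of the cytosol, 9 were called higher with the trend kept and 7 with it removed, 6 of them in both, and none lower, with medians of 0.34 and 0.41. These are 11.5% and 8.97% of the list, against 2.52% and 1.38% of all tested genes. The fits without 1 library had 4 to 9 and 2 to 9 calls, with 4 and 2 without db/db 3. Rpl39 had 344, 213 and 256 CPM in db/db and 77.1, 50.9 and 60.9 CPM in db/+, with every db/db library well above the db/+ libraries, and a log2 fold change of 2.09 ± 0.25 (SE, limma adjusted p = 0.00565). Rps20 had 431, 313 and 423 CPM in db/db and 126, 136 and 136 CPM in db/+ and a log2 fold change of 1.53, or 1.25 with the trend removed. Rpl34, Rps27a, Rps7 and Rps21 were the others called in both. Abundant members such as Rpl4 and Rps15 had log2 fold changes of 0.56 ± 0.25 (SE, limma adjusted p = 0.217) and 0.32 ± 0.26 (SE, limma adjusted p = 0.495). Of 75 mitochondrial ribosomal proteins, Mrpl34, Mrpl43 and Mrps6 were called higher in both fits and none was called lower. That is 4% of the list, against 2.52% and 1.38% of all tested genes, and leaving out 1 library left 0 or 1 call. Ribosomal protein genes have many processed copies that can take their reads, so single values are uncertain.

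These lists hold short genes, and removal of the GC trend left a trend over length. The correlation of log2 fold change with exonic length was 0.01 before and -0.18 after removal. The quintile of shortest genes then had a median of 0.13 and that of longest genes one of -0.14. The median exonic length was 4665 bases over all tested genes, 2932 over the 144 genes called higher in both fits, 1776 over cytosolic ribosomal proteins and 1718 over complex I genes. With GC and length trends both removed, 166 genes were called higher and 7 lower. Cytosolic ribosomal proteins then had 6 calls with a median of 0.29, complex I had 2 with 0.11, the ATP synthase 2 with 0.48, and lipid storage 6 with 0.58.

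**Figure D4:**
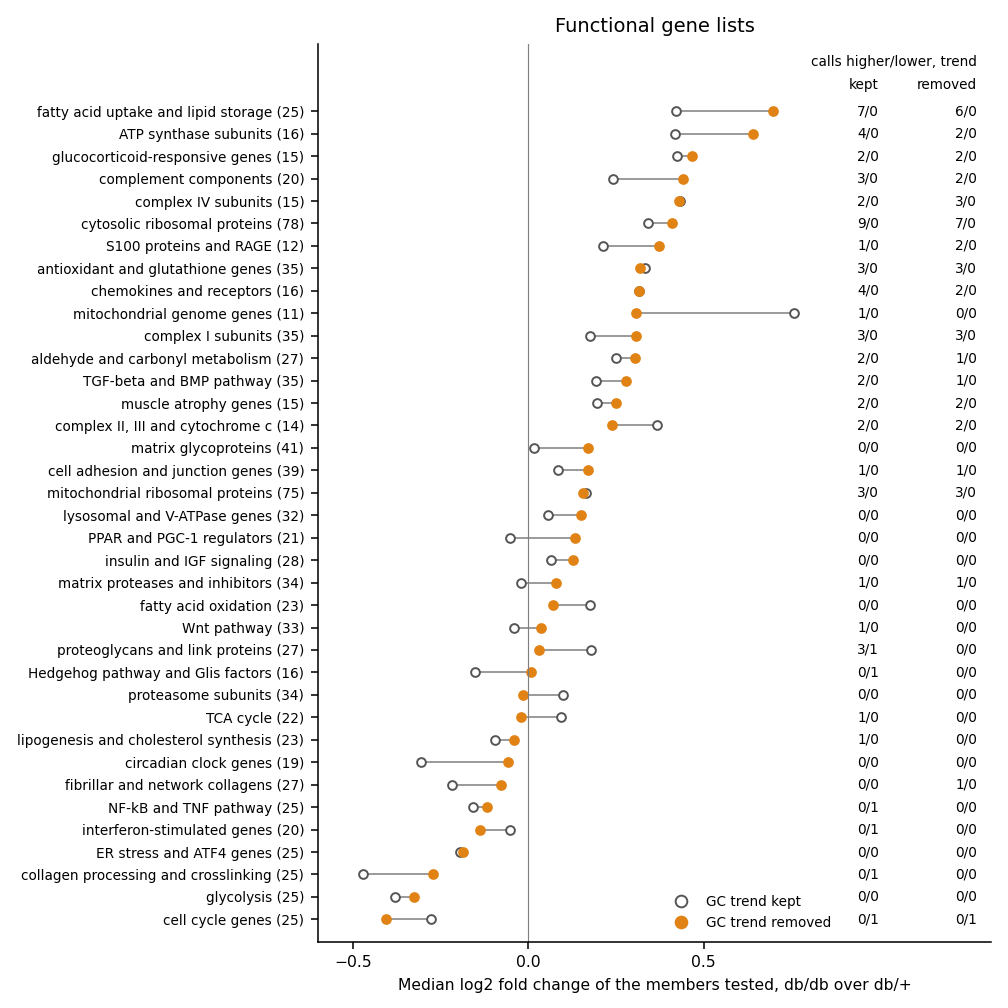
Median log2 fold change of db/db over db/+ (x axis) for 37 functional gene lists (y axis, tested members in parentheses) with the GC trend kept (open) and removed (orange), and the calls higher and lower in each fit at the right. Lipid storage moves from 0.42 to 0.70 and mitochondrial genome genes move from 0.76 to 0.31.

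Antioxidant enzymes kept their calls with the GC trend removed. Of 35 tested antioxidant and glutathione genes, Prdx1, Gpx1 and Cat were called higher in both fits and none lower, with list medians of 0.33 and 0.32. These are 8.57% of the list in each fit, against 2.52% and 1.38% of all tested genes. Prdx1, a peroxiredoxin that reduces hydrogen peroxide, had 279.6, 209 and 261 CPM in db/db and 63.0, 45.7 and 55.9 CPM in db/+. The lowest db/db level was more than 3 times the highest db/+ level, and the log2 fold change was 2.18 ± 0.23 (SE, limma adjusted p = 0.00329). Cat, the catalase of peroxisomes, had 189, 223 and 199 CPM in db/db and 72.1, 61.3 and 52.6 CPM in db/+ and a log2 fold change of 1.72 ± 0.21 (SE, limma adjusted p = 0.0061). Gpx1, a glutathione peroxidase, had 332, 259 and 318 CPM in db/db and 138, 171 and 115 CPM in db/+ and a log2 fold change of 1.08, or 1.37 with the trend removed, and was called in none of the 6 fits without 1 library. Gpx3 and Sod3, abundant secreted members, had log2 fold changes of 0.03 ± 0.32 (SE, limma adjusted p = 0.967) and 0.24 ± 0.42 (SE, limma adjusted p = 0.765). Mt1, a metallothionein that binds zinc and answers to glucocorticoids, had 99.0, 138 and 153 CPM in db/db and 47.5, 71.6 and 36.9 CPM in db/+ and rose by a log2 fold change of 1.33. Mt2, its close relative, had 97.1, 75.3 and 114 CPM in db/db and 29.7, 39.2 and 14.8 CPM in db/+ and rose by 1.81 on the log2 scale. They were the 2 of 15 glucocorticoid-responsive genes called in either fit, 13.3% of the list against 2.52% and 1.38% of all tested genes. Leaving out 1 library left 0 to 2 calls in this list in either fit. With the trend kept, Mt1 was called in 1 and Mt2 in 4 of the 6 fits without 1 library. Aldh1a1, which oxidizes retinal and other aldehydes, had 22.5, 18.5 and 14.3 CPM in db/db and 4.07, 6.69 and 4.92 CPM in db/+ and was called higher in both fits.

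Of 16 tested chemokines and receptors, 4 were called higher with the trend kept and 2, Ccl6 and Ccl9, with it removed. These are 25% and 12.5% of the list, against 2.52% and 1.38% of all tested genes. Without any 1 library there were 1 or 2 calls in either fit, with 1 in both fits without db/+ 2. Ccl9 had 29.7, 19.8 and 14.5 CPM in db/db and 6.80, 3.35 and 3.71 CPM in db/+ and a log2 fold change of 2.25 ± 0.36 (SE, limma adjusted p = 0.0136). Cxcl13, a B cell chemokine of 41.0% exonic GC content, had 3.18, 2.63 and 1.91 CPM in db/db and 0.912, 0.547 and 0.371 CPM in db/+, and its adjusted p (limma) went from 0.0478 to 0.116. Among 20 complement genes, C5ar1 and Serping1, the C5a receptor and the C1 inhibitor, were called higher in both, and 3 and 2 genes or 15% and 10% of the list were called in the respective fits. Leaving out 1 library left 1 or 2 calls, and any library but db/+ 1 left 1 with the trend kept. Serping1 was called in none of those 6 fits with the trend kept. C5ar1 had 73.4, 63.5 and 58.4 CPM in db/db and 27.6, 29.3 and 23.4 CPM in db/+, without overlap, and a log2 fold change of 1.27 ± 0.20 (SE, limma adjusted p = 0.0136). S100a4, a calcium-binding protein of fibroblasts and macrophages, had 183, 74.5 and 158 CPM in db/db and 38.4, 25.9 and 25.4 CPM in db/+ and a log2 fold change of 2.10 ± 0.33 (SE, limma adjusted p = 0.0131).

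Cell type markers of immune cells did not pass the test. None of 18 macrophage markers was called, with medians of 0.05 and 0.20, and 6 were called higher in each fit with the skeletal muscle score as a covariate. The score of the list overlapped between the groups at 2.78 to 3.52 and 2.59 to 3.16. Lyz2, a lysozyme of macrophages and neutrophils, had 114, 74.7 and 55.3 CPM in db/db and 44.5, 40.3 and 31.4 CPM in db/+ and log2 fold changes of 1.01 and 0.98 and limma p values of 0.0632 and 0.0961 after adjustment. Of 15 neutrophil markers 2 were tested, S100a8 and Lcn2, and neither was called. Their mean log2 CPM was 2.46 to 3.92 in db/db and 0.77 to 1.81 in db/+ libraries, without overlap (exact permutation test, two-sided p = 0.1, or 0.467 over 14 lists). Of 20 interferon-stimulated and 25 NF-kB and TNF pathway genes none was called with the trend removed, and 1 of each, Ifi35 and Ppp1r13l, was called lower with it kept. These are 5% and 4% of the lists, against 0.562% of all tested genes called lower.

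Vascular genes included Tek, the angiopoietin receptor of endothelium, which was the only one of 14 endothelial markers called in either fit. That is 7.14% of the list in each fit, against 2.52% and 1.38% of all tested genes called higher. Tek had 40.3, 35.6 and 32.4 CPM in db/db and 13.5, 15.8 and 13.2 CPM in db/+, with narrow and separate groups, and a log2 fold change of 1.34 ± 0.20 (SE, limma adjusted p = 0.0115). Pecam1 and Cdh5, junction proteins of endothelium, had log2 fold changes of 0.52 ± 0.25 (SE, limma adjusted p = 0.257) and 0.09 ± 0.23 (SE, limma adjusted p = 0.859). The endothelial score overlapped between the groups with the trend kept. With it removed it was 4.85, 4.80 and 4.97 in db/db and 4.69, 4.56 and 4.17 in db/+ libraries, without overlap, a difference of 0.40 (exact permutation test, two-sided p = 0.1, the smallest possible), and 12 of the 14 genes were above 0. S1pr1, Edn1 and Ednrb, which encode a sphingosine phosphate receptor, endothelin 1 and an endothelin receptor, were also called higher in both fits, with log2 fold changes of 1.45, 1.65 and 1.43, and were singled out after their values were seen.

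The list of 27 proteoglycan and link protein genes, which does not hold Ncan, lost its calls with the GC trend. Of its members, Ogn, Omd and Aspn, small leucine-rich proteoglycans of 34.3% to 36.3% exonic GC, were called higher and Gpc1, a glypican of 57.8%, was called lower with the trend kept. Together they are 14.8% of the list, against 2.52% of all tested genes called higher and 0.562% called lower. None was called with the trend removed. Leaving out 1 library left 0 to 2 calls in each direction with the trend kept. Ogn had 92.7, 46.8 and 55.2 CPM in db/db and 26.6, 17.9 and 17.0 CPM in db/+ and log2 fold changes of 1.62 and 1.17, at limma p values of 0.0181 and 0.0895 after adjustment. Acan had 2212, 4879 and 5239 CPM in db/db and 5514, 7872 and 11710.0 CPM in db/+ and a log2 fold change of -1.01 ± 0.42 (SE, limma adjusted p = 0.184), so the groups did not overlap while the test was not passed. Col2a1, the main collagen of cartilage, at 58.6% GC, had a log2 fold change of -0.98 ± 0.43 (SE, limma adjusted p = 0.214), and of -0.57 with the trend removed. Col1a1 and Col1a2, whose chains form 1 collagen, have exonic GC contents of 57.7% and 44.8%. Their log2 fold changes were -0.43 and 0.12 with the trend kept and -0.03 and -0.08 with it removed. Loxl3, a collagen crosslinking oxidase, had 44.9, 49.6 and 52.5 CPM in db/db and 95.8, 129.6 and 103 CPM in db/+. It was called lower at a log2 fold change of -1.16 and missed only the minimum fold change with the trend removed, at -0.98 and an adjusted p (limma) of 0.042.

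Among matrix proteases and inhibitors, Adamts8 was the only one of 34 called in either fit. That is 2.94% of the list, near the 2.52% and 1.38% of all tested genes called higher in the respective fits. Adamts8, a metalloprotease, had 7.79, 9.37 and 8.77 CPM in db/db and 0.782, 3.59 and 1.41 CPM in db/+ and log2 fold changes of 2.36 and 2.63. Cldn1, a tight junction claudin, had 9.40, 10.5 and 6.85 CPM in db/db and 2.71, 2.25 and 0.840 CPM in db/+ and was the only one of 39 adhesion and junction genes called in either. That is 2.56% of the list, again near the share of all tested genes. Inhbb, which encodes a subunit of activin B, had 5.69, 6.87 and 8.73 CPM in db/db and 2.11, 2.84 and 2.40 CPM in db/+ and a log2 fold change of 1.5, or 1.93 with the trend removed. It was the only one of 35 TGF-beta and BMP pathway genes called in both. In the respective fits 5.71% and 2.86% of that list were called, against 2.52% and 1.38% of all tested genes. With the trend kept, Inhbb was called in none of the 6 fits without 1 library. Frzb, a secreted Wnt antagonist of cartilage, had 1120.0, 1495 and 2790.0 CPM in db/db and 741, 459 and 667 CPM in db/+ and adjusted p values (limma) of 0.0489 and 0.064 at log2 fold changes of 1.46 and 1.52. Glis1, a zinc finger factor of 61.4% exonic GC, went from a log2 fold change of -1.24 to -0.80 and lost its call.

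Skeletal muscle markers lay lower in db/db discs, mostly short of the test. Of 29 tested, 26 had a log2 fold change below 0 and 27 with the trend removed, with medians of -0.72 and -0.61. Of these 2 were called lower with the trend kept, Myh1 and Actn3, and Myh1 alone with it removed. That is 6.9% and 3.4% of the list, against 0.562% and 0.0936% of all tested genes called lower. Leaving out 1 library left 0 to 5 calls lower with the trend kept and 0 or 1 with it removed. With the trend kept, Myh1 was called in 2 of the 6 fits without 1 library. Myh1, the myosin heavy chain of fast IIx fibers, had 1027, 794 and 558 CPM in db/db and 2762, 2761 and 1654 CPM in db/+. The groups did not overlap, with a log2 fold change of -1.62 ± 0.32 (SE, limma adjusted p = 0.0284), and with the trend removed it was -1.49, at an adjusted p (limma) that rounds to 0.05 and lies just under the threshold. Acta1, the skeletal muscle actin, had 2435, 1518 and 1858 CPM in db/db and 3068, 4507 and 1980.0 CPM in db/+ and a log2 fold change of -0.72 ± 0.35 (SE, limma adjusted p = 0.256). Tcap, a titin-binding protein of 61.3% GC, had a log2 fold change of -1.37 ± 0.37 (SE, limma adjusted p = 0.0683), or -0.92 with the trend removed. The summed level of the 29 genes was 25473, 19664 and 12889.8 CPM in db/db and 33251, 35855 and 28002 CPM in db/+ libraries, without overlap. Without Ttn, the giant sarcomere protein titin, it was 12463, 8454 and 7059 CPM against 16941, 19645 and 11082 CPM, and the groups overlapped. Their mean log2 CPM overlapped, at 6.94 to 7.71 against 7.42 to 8.45, and differed by -0.73 (exact permutation test, two-sided p = 0.2, or 0.467 over 14 lists).

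The other genes called lower in both fits included more muscle genes. Mybph, a myosin-binding protein, had 3.59, 2.44 and 1.61 CPM in db/db and 28.8, 14.9 and 14.4 CPM in db/+, without overlap, and a log2 fold change of -2.90 ± 0.41 (SE, limma adjusted p = 0.00992). Prkag3, the muscle regulatory subunit of AMP-activated kinase, had 3.48, 3.45 and 2.54 CPM in db/db and 9.12, 11 and 14 CPM in db/+ and a log2 fold change of -1.83 ± 0.29 (SE, limma adjusted p = 0.0144). Tln2, a talin, had 68.1, 67.9 and 77.2 CPM in db/db and 136, 174 and 175 CPM in db/+ and Hr, the corepressor hairless, had 12.5, 6.34 and 11.3 CPM in db/db and 40.3, 27.0 and 30.0 CPM in db/+. Mki67, a marker of dividing cells, had 16.9, 18.7 and 14.4 CPM in db/db and 78.7, 28.3 and 45.0 CPM in db/+, where db/+ libraries were far apart. Its log2 fold change was -1.46 ± 0.34 (SE, limma adjusted p = 0.0456) and it was called in 1 of the 6 fits without 1 library. It was the only one of 25 cell cycle genes called, and the list medians were -0.28 and -0.41. That is 4% of the list in each fit, against 0.562% and 0.0936% of all tested genes called lower. The remaining 6 were 1520401A03Rik, Olfr13, Nptx1, Gpsm1 and, at the smallest change, Nck2, together with Myh1 above. Olfr13 and Nptx1 were at 0.190 to 0.762 CPM in every db/db library. They passed the CPM minimum only through the db/+ libraries, so their lack of overlap follows in part from the filter. With the trend kept, each was called in 1 of the 3 fits without 1 library that tested it.

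With the skeletal muscle score as a covariate the calls grew in number. There were 675 genes higher and 377 lower with the trend kept and 531 and 152 with it removed. All 155 genes called in both fits kept their direction and had an unadjusted p below 0.05. They were selected in the same 6 libraries, so this is no independent check. The score correlated with genotype at -0.69 over the 6 libraries. With the trend removed, the adipocyte list then had 12 genes called higher and 1 lower of 21, cytosolic ribosomal proteins 16 higher of 78 and antioxidant genes 10 higher of 35. The median of the muscle list itself was -0.02, near 0 by construction, since the score is the mean of that list.

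**Figure D5:**
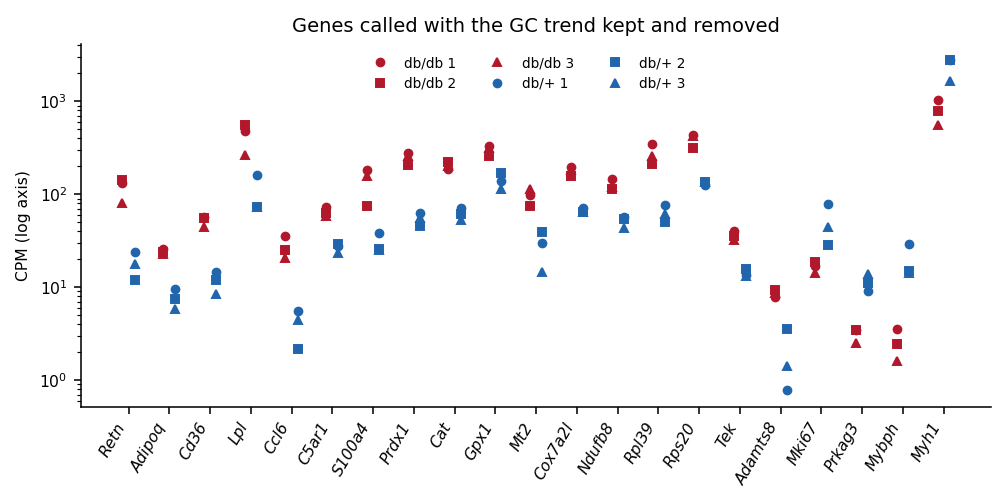
CPM on a log axis (y axis) of 21 genes called with the GC trend kept and removed (x axis) in each db/db (red) and db/+ (blue) library, 1 point per mouse. In each of the 21 genes the red and blue points do not overlap, and Mki67, Prkag3, Mybph and Myh1 at the right are lower in db/db.

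Calls among notochordal genes depended on single db/+ libraries. None of 12 tested nucleus pulposus and notochord markers was called in either fit, with medians of -0.67 and -0.72. Without db/+ 2, 1 of the 12 was called lower in each fit, with medians of -0.43 and -0.26. Without db/+ 1, 3 were called lower in both, with medians of -1.27 and -1.21. The 3 were T, Krt19 and Krt8, whose log2 fold changes were -2.80, -3.20 and -2.80 with the trend kept (limma adjusted p = 0.00423, 0.00749 and 0.00483). Without that library and with the GC trend removed, 54 genes were called lower, among them Plet1, the laminin gene Lamb3 and the desmosome genes Dsp, Dsg2 and Pkp1, singled out after their values were seen. With all 6 libraries there were 12. Cd24a, another marker of nucleus pulposus cells, had 271, 177 and 285 CPM in db/db and 112, 248 and 292 CPM in db/+ and was not called in either set of libraries.

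Other marker lists, of cells of the disc itself and of tissues next to it, showed no call. None of 19 chondrocyte, 13 annulus fibrosus and tendon, 13 osteoblast and osteocyte, 7 osteoclast or 12 Schwann cell markers was called in either fit. Their median log2 fold changes with the trend removed were -0.39, 0.35, -0.32, -0.16 and -0.24. Pmp22, a myelin protein, had 589, 808 and 453 CPM in db/db and 371, 2034 and 469.7 CPM in db/+, with db/+ 2 above all others, as for Car3.

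Removal of the trend also brought 34 genes to the threshold. The 33 that became higher were of 51.4% to 63.3% exonic GC. They included Kcnk3, a potassium channel, and Cdkn1c, an inhibitor of the cell cycle, with log2 fold changes that went from 1.23 to 1.63 and from 1.18 to 1.61. Col8a2, a network collagen, Cox8a and Uqcr10 of the respiratory chain, Rpl35 and S100a6 were among them. Col8a2 had 39.7, 39.4 and 92.7 CPM in db/db and 20.4, 28.9 and 30.1 CPM in db/+, with 1 db/db library well above the rest, and was the only fibrillar or network collagen called in either fit. The 1 that became lower was Mylk4, a muscle kinase, with 74.1, 99.5 and 65.1 CPM in db/db and 131, 168 and 133 CPM in db/+.

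Of the 37 functional lists, 27 had a member called with the trend kept and 18 had a member called in both fits. How many lists would hold a call at the rate of all tested genes, 2.52% higher and 0.562% lower with the trend kept, was not computed. Lists also share genes, as the glucocorticoid and muscle atrophy lists share Mt1 and Mt2. The tally alone therefore does not show which functions remain. Those without any call in either fit were fatty acid oxidation, glycolysis, proteasome subunits, matrix glycoproteins, ER stress and ATF4 genes, insulin and IGF signaling, PPAR and PGC-1 regulators, circadian clock and lysosomal genes. Of the 144 genes called higher in both fits, 40 belonged to a list by symbol and 104, Trarg1 among them, to none. Large changes among the 104, chosen after their values were seen, were in Ppp1r3c, a glycogen-targeting subunit of protein phosphatase 1, Mylk, the smooth muscle myosin kinase, Nnat, an imprinted membrane protein, and Penk, which encodes proenkephalin. Ppp1r3c had 850.1, 745 and 1038 CPM in db/db and 167, 273 and 248 CPM in db/+ and a log2 fold change of 1.95 ± 0.28 (SE, limma adjusted p = 0.00992). Mylk had 646, 706 and 1274 CPM in db/db and 188, 299 and 179 CPM in db/+ and a log2 fold change of 1.91 ± 0.32 (SE, limma adjusted p = 0.0157). Nnat had 8.97, 7.96 and 9.39 CPM in db/db and 2.48, 2.21 and 2.07 CPM in db/+ and Penk had 38.6, 30.7 and 37.0 CPM in db/db and 17.1, 8.48 and 9.63 CPM in db/+. In all 4 the lowest db/db library lay above the highest db/+ library.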

How the data were processed

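Total RNA of flash-frozen discs was amplified to complementary DNA and sequenced. Per the labels and the study's methods, the authors aligned reads with STAR to GRCm38 with the annotation of Ensembl release 101, counted whole reads per gene with featureCounts, and estimated transcript counts with Salmon. The deposited gene table holds raw counts, not normalized, and the deposited transcript table holds estimated counts, which were rounded and summed per gene as an alternative. The other 8 libraries entered only the GC slopes of their own cohort and 1 alternative.

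Counts were scaled by TMM in edgeR 4.0.16, filtered at a CPM above 1 in at least 3 of the 6 libraries (15332 genes of all types, 12820 of them protein-coding) and fitted with limma 3.58.1 voomWithQualityWeights, as in the study's methods, in R 4.3.3. P values were adjusted over all 15332 genes (Benjamini-Hochberg). GC content was taken from merged exons of GENCODE M21 on the same build. To remove the GC trend, the counts of each library were divided by the median deviation of log2 CPM from the mean of the 6 libraries in 20 equal-sized GC bins, and the fit was repeated. This also removes any real change that follows GC content. Marker scores are mean log2 CPM with a prior count of 2 and were compared by exact permutation. Depth was 43397872 to 52363402 counts per library. Floors of 3 counts cover counting error only. Libraries of 1 group differed far beyond sampling noise (chi-square per degree of freedom 170 to 321). Replicate numbers did not pair the samples, since the deviations of same-numbered mice correlated at 0.22, -0.28 and -0.07.

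The comparison, gene lists and naming rule were chosen with earlier results of these data known, so lists carry no test of their own. Libraries were grouped by their labels. Genes were named as the 10 largest changes per direction called in both fits without overlap, the 5 largest per direction called with the trend kept only and up to 5 called with it removed only, the 2 most abundant members of each list and any member called in both fits, Lepr, and 10 defining markers of fat and muscle. The text gives a selection of these, and says where a gene was chosen after its values were seen. DESeq2 1.42.0, the quasi-likelihood test of edgeR and other scalings, filters, covariates and subsets served as alternatives. The fits were tested on simulated data.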

Additional observations from a re-analysis of the deposited data

How the results depend on the processing

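The limits are 3 mice per group, a GC trend that follows genotype, and an adipocyte score that nearly does. The main counts were 323 genes higher and 72 lower with the GC trend kept and 177 and 12 with it removed. By DESeq2 there were 481 and 262 with the trend kept and 368 and 111 with it removed, so that the share of higher calls went from 81.8% to 64.7% and from 93.7% to 76.8%. edgeR's quasi-likelihood test gave 340 and 84, and 194 and 13. RLE scaling gave 254 and 64, and 176 and 11.

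Transcript counts summed per gene gave 100 and 13 with the trend kept and 76 and 6 with it removed. All 14 libraries in 1 fit gave 189 genes higher with the trend kept. filterByExpr gave 46 lower with the trend kept and 7 with it removed, no low-count filter gave 23 lower with it removed, and protein-coding genes alone gave 121 lower with it kept. Removal of GC and length trends gave 7 lower. The skeletal muscle score as covariate gave 675 and 377, and 531 and 152. The adipocyte score as covariate gave 0 in each (limma, with 1641 and 1654 genes at an unadjusted p below 0.05). Leaving out 1 library gave 70 to 198 higher and 11 to 77 lower with the trend kept and 39 to 140 and 1 to 54 with it removed. A loess curve or 10 bins left 179 to 181 higher and 10 to 12 lower.

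A replicate block gave 597 higher and 364 lower with the trend kept and 481 and 161 with it removed. The labels share only numbers between the groups, and not every mouse correlated best with its own number. The cause of these shifts was not tested.

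The correlation of fold change with GC content was -0.51, -0.43 from summed transcript counts, and -0.55 to -0.45 when 1 library was left out. The difference in GC slope was -0.43 to -0.46. The adipocyte score difference was 0.77 to 1.10 and the muscle score difference -1.01 to -0.49 over their alternatives.

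Of 79 named genes, 63 kept their side of the threshold when the trend was removed, 10 lost a call and 6 gained one. With the quasi-likelihood test 76 kept it. No named gene reversed a call. For removal of the trend this was fixed in advance, since the shifts were smaller than the minimum fold change of a call.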
